A study of Rattus norvegicus with 58 samples.

Results

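Synovium, the soft tissue that lines joints, was compared between arthritic and naive rats over 8 of the 58 RNA-seq libraries of the series. The 4 PIA libraries came from female DA/OlaHsd rats injected at 6 to 8 weeks of age with 250 µl of pristane, a hydrocarbon oil, and left without saline or RTD-1. Disease was scored in the rear limbs and had to reach a score of at least 3 in each before the experiment began. PIA stands for pristane-induced arthritis. The 4 Naive libraries carry no arthritis and no treatment in their labels, and their strain, sex and age are not stated separately. The 8 libraries were taken by the sample titles, and no measured value entered that choice. The other 50 libraries entered the estimate of the spread, and the same genes were read in them for comparison. They came from arthritic rats after subcutaneous saline or RTD-1 at 5 mg per kg for 1 day (n = 4 each), 3 days (n = 8 each) or 5 days (n = 8 each), and from healthy rats after RTD-1 for 3 or 5 days (n = 5 each). Of these, saline for 1 day and healthy RTD-1 for 3 days form a contrast of their own. The drug, RTD-1, is a theta-defensin of the rhesus monkey, a small ring-shaped peptide with a part in innate immunity. Whether each library came from its own animal is not in the labels, and the spread behind every p-value is therefore that between libraries, part of which may be technical.

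Healthy synovium is a thin lining of fibroblast-like and macrophage-like cells over loose connective tissue, vessels and fat. In pristane arthritis an autoimmune-like reaction driven by T cells brings leukocytes into this tissue, the lining thickens, and enzymes and cytokines released there erode cartilage and bone. Bulk RNA from such tissue therefore mixes changes within cells with changes in which cells are present. Genes are given here by Ensembl identifier, because the reference table used here paired 0 of the 16879 identifiers with a symbol. Markers of synovium and of other cell types were for that reason not checked, and no function is attached to any gene.

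Reads in genes numbered 1573925 to 2396818 in the Naive libraries and 2091360 to 2536140 in the PIA libraries, so the depth of both groups overlapped. Within each group the libraries ranked genes alike, with a Spearman rho across the 13062 genes tested of 0.940 to 0.960 between Naive libraries and 0.951 to 0.972 between PIA libraries. Between a PIA and a Naive library it was 0.797 to 0.850. These are correlations across genes, which are not independent replicates. The deposited values divide reads by a factor per library, and reads in genes made up 28.5% to 41.6% of that factor in Naive libraries and 40.3% to 49.7% in PIA libraries.

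Arthritic synovium differed from naive synovium across a large part of the transcriptome. With the deposited scaling, the called falls had a larger median size than the called rises. Of 13062 genes tested, 5130 passed, which is 39.3% of them (limma, Benjamini-Hochberg adjusted p under 0.05). The 3637 genes that rose (27.8% of those tested) did so by a median of 1.10 log2, and the 1493 that fell (11.4%) by a median log2 fold change of -1.74. Of the genes that rose, 44.0% did so by less than 2-fold, against 20.7% of those that fell. Changes of at least 2-fold were called for 3219 genes (24.6%), of which 2035 rose (15.6%) and 1184 fell (9.06%). In bulk tissue, fewer cells of a type and less RNA per cell cannot be told apart, and this holds for every fall and rise given here.

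The balance of direction moved with the scaling and the filter, and no called gene was called in the other direction with another scaling. The median of all genes tested was 0.28 log2 higher in PIA with the deposited scaling, -0.00 with TMM factors (-0.00246) and 0.03 with quantile normalization. The share of called genes that were higher was 70.9% with the deposited scaling, 49.7% with TMM factors and 51.8% with quantile normalization. The filter moved the balance too, with 3606 genes higher and 2235 lower when none was applied. TMM factors gave 5152 calls (39.4% of genes tested), 2563 higher (19.6%) and 2589 lower (19.8%). The difference between rises and falls in the share under 2-fold was smaller with the other scalings. At least 2-fold were 1372 of 2563 rises and 1644 of 2589 falls with TMM factors. With quantile normalization they were 1533 of 2719 rises and 1553 of 2534 falls. All 1493 genes that fell were also called lower with TMM factors, and 2563 of the 3637 that rose (70.5%) were also called higher. Among genes that rose at least 2-fold, 1874 of 2035 (92.1%) were called higher with TMM factors. No called gene was called in the other direction with TMM factors or with quantile normalization. The share of the factor that fell in genes differed between the groups, as given above, and its part in the shift was not tested.

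**Figure D1:**
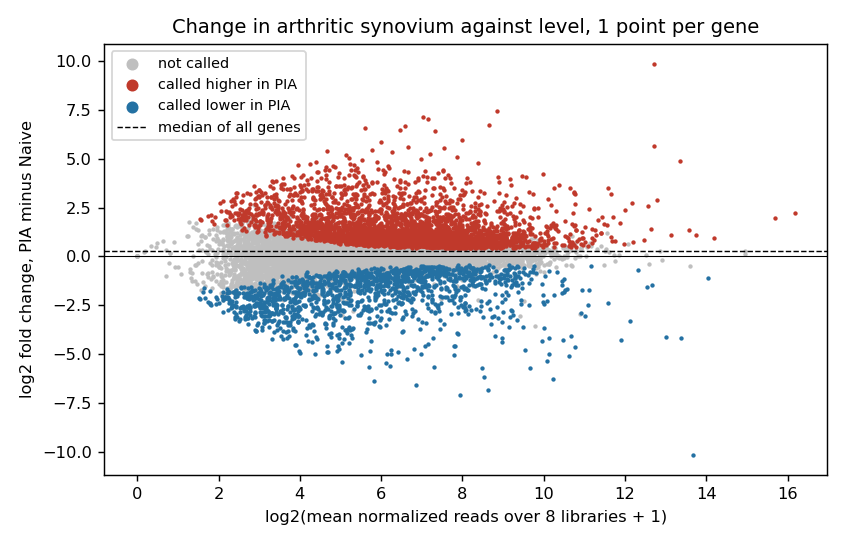
Each point is 1 of 13062 genes, with its mean level over the 8 libraries on the horizontal axis (log2 of normalized reads + 1) and its log2 fold change, PIA minus Naive, on the vertical axis. Red points (3637) were called higher and blue points (1493) lower in PIA, and the dashed line marks the median of all genes at 0.28.

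Separation between the libraries was often complete. Every PIA library lay above every Naive library for 2917 genes (22.3% of those tested) and below every Naive library for 1378 (10.5%). Of the genes called higher, 2596 of 3637 (71.4%) had groups that did not overlap, and of those called lower, 1171 of 1493 (78.4%). Among genes changed at least 2-fold the numbers were 1757 of 2035 that rose and 988 of 1184 that fell. Calls and overlap rest on the same values, so the higher shares among called genes follow from the call and are a description.

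Counted by size, rises outnumbered falls by less among large changes than over all calls, and at 32-fold they did not. At least 4-fold changes were called for 720 genes that rose and 609 that fell, at least 8-fold changes for 278 and 221, and at least 16-fold changes for 81 and 74. At least 32-fold changes were called for 21 genes that rose and 22 that fell. With TMM factors falls outnumbered rises at each of these sizes, with 544 and 764 at 4-fold, 199 and 292 at 8-fold, 53 and 89 at 16-fold, and 17 and 32 at 32-fold. Because 1 was added to each value before the logarithm, folds of scarce genes come out too small.

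Abundant genes were called more often than scarce ones. Of 231 genes with a mean of at least 1000 normalized reads over the 8 libraries, 105 rose and 40 fell, or 62.8% in all. Of 4329 genes between 100 and 1000 normalized reads, 1630 rose and 459 fell (48.3% in all). Of 6993 genes between 10 and 100 normalized reads, 1728 rose and 748 fell (35.4%). Below 10 normalized reads the direction turned, with 174 of 1509 genes higher and 246 lower, and each of these calls was a change of at least 2-fold. With TMM factors rises outnumbered falls only in the upper groups, with 91 against 56 from 1000 normalized reads and 1160 against 939 from 100 to 1000. From 10 to 100 they numbered 1177 and 1281, and below 10 they numbered 135 and 313.

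Among called genes averaging 5 or more on the log2 scale, ENSRNOG00000002548 rose most. It stood at 8.89, 6.72, 7.98 and 30.2 normalized reads in Naive replicates 1 to 4 and at 22313, 10460, 17193 and 4195 in PIA replicates 1 to 4. All PIA libraries were high and all Naive libraries near the floor, and the lowest PIA value was 139 times the highest Naive value. The gene took between 0.181% and 0.780% of the reads in genes of PIA libraries. Its log2 fold change was 9.88 (SE 0.637, limma adjusted p = 1.31e-16), and 9.59 with TMM factors. PIA replicate 4 held the least of the PIA libraries and Naive replicate 4 the most of the Naive libraries.

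ENSRNOG00000008478 showed the next largest rise, again with PIA replicate 4 lowest in PIA and Naive replicate 4 highest in Naive. Its normalized reads were 2.67, 2.88, 0 and 31.2 in Naive replicates 1 to 4 and 1187, 1334, 797 and 359 in PIA replicates 1 to 4. The 0 in Naive replicate 3 allows up to 2.99 normalized reads (3 reads, counting error only). The groups did not overlap, with the lowest PIA value 11.5 times the highest Naive value. The log2 fold change was 7.47 (SE 1.18, limma adjusted p = 1.45e-06), and 7.14 with TMM factors. Its size rested in part on single Naive libraries, being 6.73 without Naive replicate 3 and 8.40 without Naive replicate 4.

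The largest fall was that of ENSRNOG00000013552, which by itself made up between 1.14% and 1.58% of the reads in genes of the Naive libraries. It held 24407, 28175, 33130 and 18641 normalized reads in Naive replicates 1 to 4 and 15.8, 15.9, 16.7 and 45.1 in PIA replicates 1 to 4. Every PIA library was near the floor, and the lowest Naive value was 414 times the highest PIA value. The log2 fold change was -10.18 (SE 1.45, limma adjusted p = 1.57e-07), and -10.47 with TMM factors. The standard error was larger than that of the other 3 genes. It takes in the spread within all 10 groups, and some treated arthritic groups varied widely for this gene. After 5 days of RTD-1 it ran from 3.51 to 7510 normalized reads over 8 libraries, and after 3 days of saline from 1.28 to 1417 over 8 libraries.

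ENSRNOG00000013128 fell next most. Its normalized reads were 395, 664, 597 and 275 in Naive replicates 1 to 4 and 0, 0.994, 6.69 and 6.71 in PIA replicates 1 to 4. The 0 in PIA replicate 1 allows up to 3.38 normalized reads. The groups did not overlap, with the lowest Naive value 41.0 times the highest PIA value, and the change was -7.11 log2 (SE 0.856, adjusted p = 3.44e-09 in limma), or -7.30 with TMM factors. In both falling genes Naive replicate 4 was the lowest Naive library and PIA replicate 4 the highest PIA library.

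Over all 10 groups, PIA and Naive included, medians of the 4 genes followed disease status. The genes were picked by PIA and Naive, and several limits below are medians of those groups themselves. For ENSRNOG00000002548 group medians ran from 7581 to 14258 normalized reads over the 7 arthritic groups and from 8.44 to 15.1 over the 3 groups without arthritis. For ENSRNOG00000008478 they ran from 622 to 1413 in arthritic groups and from 2.59 to 6.12 in the others. For ENSRNOG00000013552 medians were 16.3 to 154 in arthritic groups and 26291 to 31097 in the others, and for ENSRNOG00000013128 they were 3.84 to 14.8 and 429 to 496. For ENSRNOG00000008478 single libraries overlapped. Of the 14 libraries without arthritis 4 lay above the lowest arthritic library, which held 19.7 after 5 days of RTD-1. Of the 44 arthritic libraries 5 lay below the highest library without arthritis, which held 217 after 3 days of RTD-1.

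**Figure D2:**
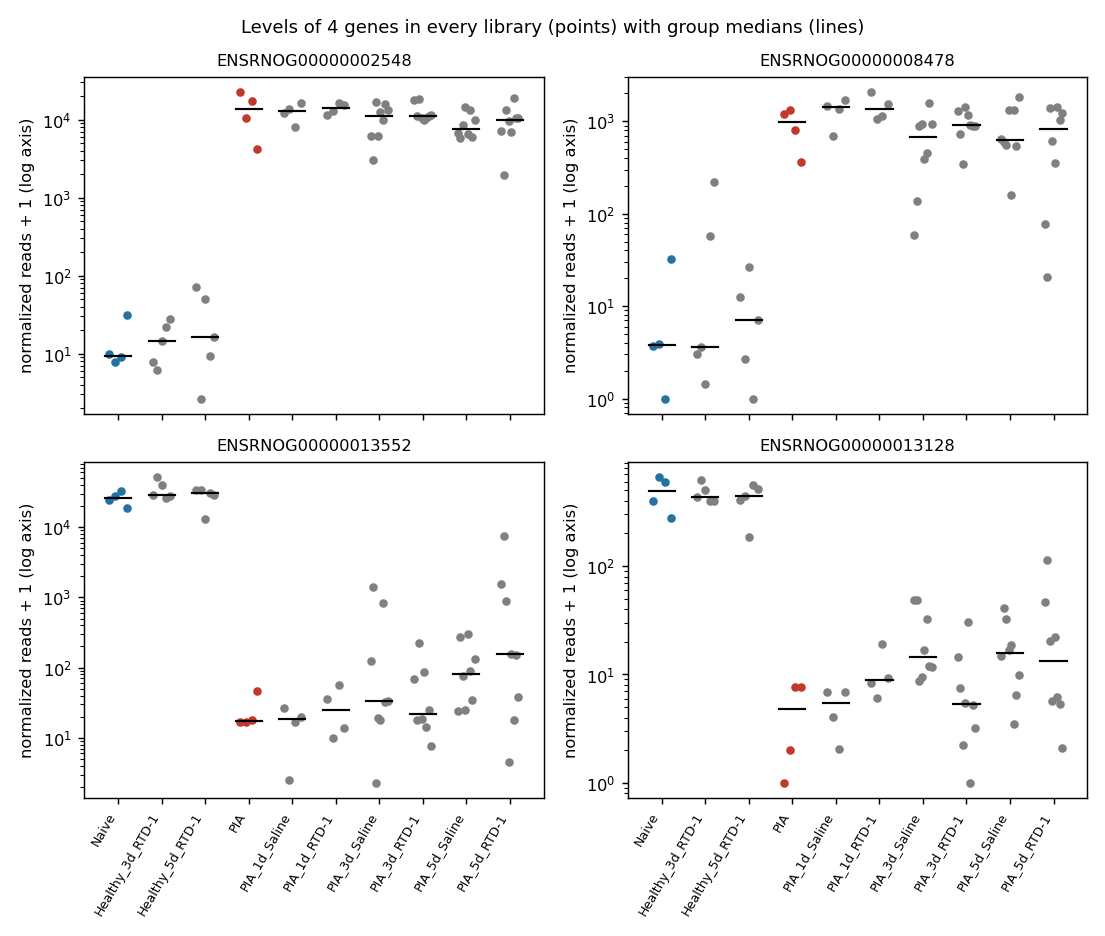
Points are normalized reads + 1 of 4 genes in each of 58 libraries on a log axis, by group, and lines are group medians. Red marks PIA and blue Naive, and arthritic and healthy groups stand apart in all 4 panels apart from single libraries of ENSRNOG00000008478.

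The 12 largest rises and 12 largest falls by the same rule, these 4 genes included, were picked for their folds in this contrast, and their values are given as a description. Rises ran from 4.43 to 9.88 log2 and falls from 4.77 to 10.18 in size, with a limma adjusted p of at most 1.45e-06 and 7.40e-05. The groups did not overlap for 12 of 12 rises and 12 of 12 falls. Mean levels of the 12 rising genes were 6.64 to 710 normalized reads in Naive and 242 to 20089 in PIA. Mean levels of the 12 falling genes were 241 to 26088 in Naive and 3.60 to 61.6 in PIA.

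These changes shifted a large share of the reads in genes, and the shares below are percents of those reads. The 2035 genes that rose at least 2-fold took 11.1%, 11.4%, 11.0% and 13.7% of reads in Naive replicates 1 to 4, and 36.5%, 33.1%, 37.5% and 29.2% in PIA replicates 1 to 4. The mean share was 11.8% ± 1.27 in Naive and 34.1% ± 3.77 in PIA (SD, n = 4 each), a ratio of 2.88. The 1184 genes that fell at least 2-fold took 18.7%, 19.3%, 18.4% and 16.4% of reads in Naive replicates 1 to 4, and 3.16%, 2.36%, 3.05% and 3.85% in PIA replicates 1 to 4. The mean went from 18.2% ± 1.25 to 3.11% ± 0.610 (SD, n = 4 each), a ratio of 5.86. PIA replicate 4 and Naive replicate 4 lay nearest to each other on both measures. Both gene sets were chosen by this contrast, so the shares describe its size and are not tested. For a given set of genes, a share of reads within a library does not depend on the scaling factor. Which genes were in the sets did depend on it. With TMM factors 1372 genes rose and 1644 fell at least 2-fold, and their shares were not taken.

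**Figure D3:**
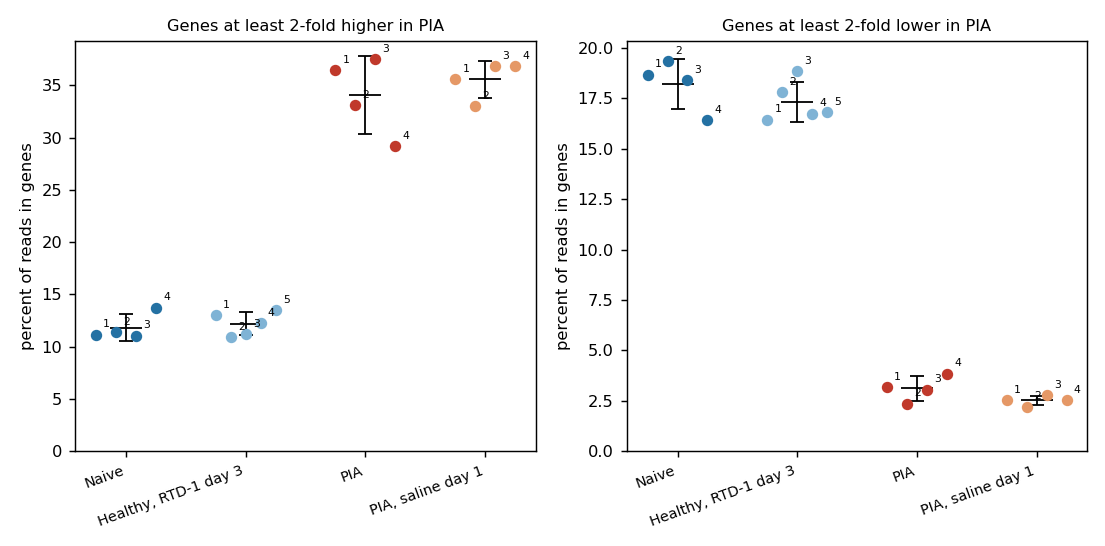
Points are the percent of a library's reads in genes that fell in the 2035 genes at least 2-fold higher (left) and the 1184 at least 2-fold lower in PIA (right), numbered by replicate, with means and SD as bars. PIA libraries sat at 29.2% to 37.5% and 2.36% to 3.85%, Naive libraries at 11.0% to 13.7% and 16.4% to 19.3%, and the groups outside the comparison lay beside them.

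The most abundant transcripts were partly exchanged. Of the 100 genes with the most reads in Naive tissue, 54 were also among the 100 with the most in PIA tissue. Ranks are by reads, which depend on transcript length too. Each list was picked by its level in 1 of the groups, which tilts the Naive list towards falls and the PIA list towards rises, so nothing is read from the direction. Over all genes tested 27.8% rose and 11.4% fell. Of the Naive 100, 40 fell (37 of them at least 2-fold), 26 rose and 34 were not called, and 18 stood below rank 1000 in PIA. Of the PIA 100, 70 rose (48 of them at least 2-fold), 4 fell and 26 were not called, and 8 stood below rank 1000 in Naive. With TMM factors 50 of the Naive 100 fell and 23 rose, and 7 of the PIA 100 fell and 65 rose. The 10 genes with the most reads in each library took 10.1% to 12.1% of reads in genes in Naive and 10.3% to 19.3% in PIA. This measure overlapped between the groups.

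The mean number of genes detected was lower in arthritic tissue at equal numbers of reads in genes. With each library thinned to 1500000 reads, the expected number of genes with at least 1 read was 14911, 15099, 14242 and 15536 in Naive replicates 1 to 4. It was 13511, 13584, 14345 and 14005 in PIA replicates 1 to 4. The mean was 14947 ± 538 in Naive and 13861 ± 389 in PIA (SD, n = 4 each), with PIA replicate 3 above Naive replicate 3. The share of the factor in genes moved with this number, being lowest in Naive replicate 4 (28.5%), which had the most genes, and highest in PIA replicate 1 (49.7%), which had the fewest. Naive replicate 3, with the fewest genes of the Naive libraries, had the highest share of them at 41.6%. The part of that share in the difference was not tested, and thinning matched reads in genes only. Thinning was chosen after the data were seen. Complete switches were rare among the 13062 genes tested. Of 41 genes with 0 reads in all 4 Naive libraries 16 were called higher, and 2 of the 41 had at least 10 normalized reads in every PIA library. Of 48 genes with 0 reads in all 4 PIA libraries 31 were called lower, and 3 of the 48 had at least 10 normalized reads in every Naive library. A gene at 0 in every library of a group can only be called higher in the other, so the selection fixed the direction. Over all genes tested 27.8% were called higher and 11.4% lower. A count of 0 allows up to 3.12 normalized reads in a Naive library and 3.38 in a PIA library, at the shallowest factor of each group. In all, and with these genes included, 196 lay under 10 normalized reads in every Naive library and at or above 10 in every PIA library, and 163 showed the reverse.

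Arthritic libraries differed among themselves, most of all for genes that had fallen. The median SD of log2 values between PIA libraries was 0.342 over all genes tested, 0.371 for genes at least 2-fold higher and 0.646 for genes at least 2-fold lower, which have few reads there. Between Naive libraries the medians were 0.398, 0.460 and 0.467. To set libraries beside each other without the scaling factor, the median log2 level of the 278 genes at least 8-fold higher was taken less the median of all genes in the same library. It was 0.08, 0.64, -0.06 and 0.43 in PIA replicates 1 to 4 and -3.20, -3.25, -3.41 and -2.43 in Naive replicates 1 to 4. PIA replicate 2 stood highest, and Naive replicate 4 stood above the other Naive libraries while far below every PIA library. For the 221 genes at least 8-fold lower it was -3.92, -5.00, -3.65 and -3.49 in PIA replicates 1 to 4 and 0.10, 0.06, -0.07 and -0.03 in Naive replicates 1 to 4. Both sets of genes were called with the deposited scaling, where TMM factors gave 199 higher and 292 lower at 8-fold.

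Naive replicate 4 was the highest Naive library for 105 of the 278 genes at least 8-fold higher (37.8%), against 11.0% of all genes tested. Such shares depend on the scaling of each library. Naive replicate 3 was highest for 7981 of the 13062 genes tested, with a median level of 6.00 log2 against 5.48 in Naive replicate 4. PIA replicate 2 was the highest PIA library for 104 of the 278 and PIA replicate 4 for 103, against 24.1% and 30.2% of all genes tested. PIA replicate 2 was the lowest PIA library for 8 of the 278 (2.88%), against 20.9% of all genes tested. PIA replicate 3 was the lowest for 149 of the 278 and for 45.0% of all genes tested. PIA replicate 2 was also the library least like naive tissue, with a Spearman rho of at most 0.811 with any Naive library, where the other PIA libraries had at least 0.833.

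**Figure D4:**
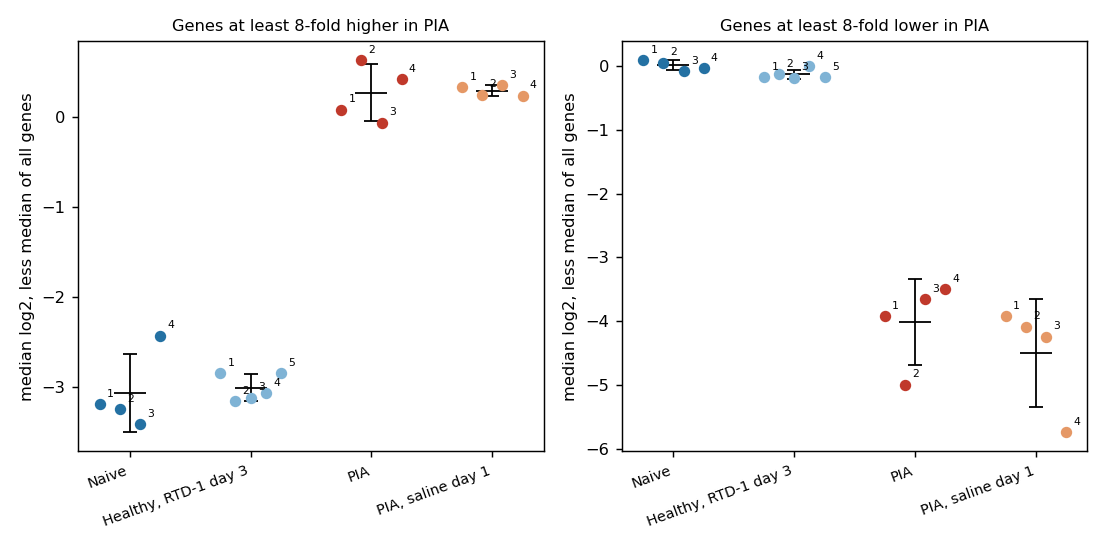
Points are, for each library, the median log2 level of the 278 genes at least 8-fold higher (left) or the 221 at least 8-fold lower in PIA (right), less the median of all genes in that library, with replicate numbers and mean ± SD. On the left Naive replicate 4 lies at -2.43, above the other Naive libraries at -3.41 to -3.20, and PIA replicate 2 is the highest at 0.64.

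Most of the changes kept their direction in libraries other than those of PIA and Naive. Arthritic libraries after 1 day of saline were set against healthy libraries after 3 days of RTD-1, which share no library with PIA or Naive. All of them entered the estimate of spread behind both contrasts, so the calls of the contrasts are not independent of each other. These groups also differ in treatment and depth, at 1447356 to 4512069 and 4437281 to 6183258 reads in genes, so disease, treatment and depth cannot be told apart in this contrast. It called 5503 of 13062 genes (42.1%, limma adjusted p under 0.05), 2125 higher (16.3%) and 3378 lower (25.9%). Its median over all genes was -0.18 log2, opposite to that of PIA against Naive, and -0.05 with TMM factors, which called 6180 genes (47.3%), 3011 higher (23.1%) and 3169 lower (24.3%).

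Nearly every gene that fell in PIA was also low there. Over all genes tested 25.9% were called lower there and 16.3% higher, with a median of -0.18 log2, which favours agreement among falls. Of the 1493 genes that fell in PIA, 1490 (99.8%) were lower after saline than in healthy libraries, and 1353 (90.6%) were called lower, with none called higher. Of the 3637 that rose in PIA, 3122 (85.8%) were higher and 1799 (49.5%) were called higher, while 32 were called lower. With TMM factors 92.0% of the rising genes were higher and 64.8% were called, and 26 were called lower. At 2-fold or more, 72.4% of the rising and 90.5% of the falling genes were called in the same direction. At 8-fold or more, 278 of 278 rising genes and 221 of 221 falling genes kept their direction, and 269 and 214 of them were called. The 278 rising genes had a median change of 3.53 log2 in PIA against Naive and 2.94 in the other libraries. The 221 falling genes had medians of -3.63 and -4.11.

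All 24 of the largest rises and falls were called in the same direction there. ENSRNOG00000002548 changed by 9.84 log2 (SE 0.604, limma adjusted p = 1.59e-17) and ENSRNOG00000008478 by 6.76 (SE 1.12, adjusted p = 2.82e-06). ENSRNOG00000013552 changed by -11.44 log2 (SE 1.37, limma adjusted p = 2.85e-09) and ENSRNOG00000013128 by -6.70 (SE 0.812, adjusted p = 3.06e-09). Across all genes tested the log2 fold changes of both contrasts had a Pearson r of 0.877 and a Spearman rho of 0.828, given as a description across genes. Of the 7932 genes not called between PIA and Naive, 326 were called higher and 1993 lower in the other libraries.

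**Figure D5:**
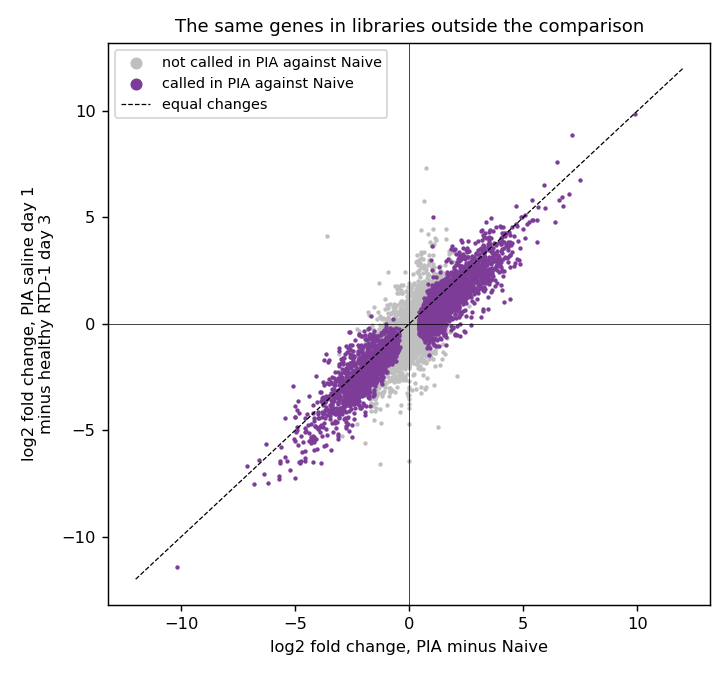
Each point is 1 of 13062 genes, with its log2 fold change in PIA minus Naive on the horizontal axis and in saline day 1 minus healthy RTD-1 day 3 on the vertical axis. Purple points were called in PIA against Naive, and the dashed line marks equal changes. Called falls lie almost entirely at the lower left (1490 of 1493), and called rises mostly in the upper right (3122 of 3637).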

How the data were processed

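Per the labels' protocols, stranded libraries were made from total synovial RNA and read from 1 end over 75 nt. The submitters' processing notes name HISAT and DESeq, with no version. For genome build, annotation and read counting the entry is "not given in the sources used here". Deposited numbers are log2 values of reads divided by 1 factor per library. Undoing the logarithm gave whole reads for 100% of values above 0 (relative tolerance 0.001), with 0 reads held as 0.9 of a read. Of 16880 rows, 16879 carried an identifier. The other row, equal to 0.00132% to 0.00389% of the reads in genes of these 8 libraries, was left out.

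Reads were scaled to the median factor of 5.75 megareads (normalized reads). A gene was tested if 4 or more of the 58 libraries held 10 or more normalized reads of it. The test was limma (version 3.58.1, R 4.3.3) with 10 group means fitted over all 58 libraries to log2 values with a pseudocount of 1, with trend and robust moderation and two-sided Benjamini-Hochberg adjustment. It was tested on simulated data of all 58 libraries and 12815 genes, with means and spread pooled over the 10 groups. There 50 genes per size were changed in PIA. The test found 4% of them at 1.5-fold, 54% at 2-fold, 82% at 4-fold and 94% at 8-fold, and made 7 false calls. Far fewer genes changed there than were called in the data, which makes the adjusted threshold stricter. The rates are therefore not those of the real contrast. Replicates differed by more than sampling noise (chi-square per degree of freedom at least 3.35). The naming rule took the 12 strongest called changes per direction at a mean log2 of 5 or more, by symbol. Since none matched, 2 identifiers per direction are printed, and lists of pathway genes and cell markers, promoters and miRNA sequences were not used here. Comparisons and lists were chosen with earlier results of these data known. Alternatives were other pseudocounts (0.5 and 8), filters (none, and 50 normalized reads), TMM factors (trimmed mean of M values) and quantile normalization, only 8 libraries in the fit, array weights, limma voom, a replicate block, and each library left out. Figures were drawn with matplotlib 3.10.9.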

Additional observations from a re-analysis of the deposited data

Results flagged for a closer look

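In 48 sets of 4 or 5 libraries, a library far from the others of its group was looked for. The measure was the gap to its nearest neighbour over the group's range. Chance gives about 1 in 20 for independent sets of normally distributed values. The sets here share genes and libraries, and some hold reads near the floor, so the number flagged cannot be set against that rate. There were 6 flagged values. Naive replicate 4 gave 3 of them. The genes at least 2-fold higher in PIA took 13.7% of its reads in genes, against 11.4% in the next Naive library. Naive replicate 4 held 30.2 normalized reads of ENSRNOG00000002548 (next 8.89) and 31.2 of ENSRNOG00000008478 (next 2.88). PIA replicate 4 held 45.1 normalized reads of ENSRNOG00000013552, where the next PIA library held 16.7. Among libraries outside the comparison, saline day 1 replicate 2 took 25.2% of its reads in genes with its 10 most abundant genes (next 18.4%). There, too, 1 healthy library after 3 days of RTD-1 held 217 normalized reads of ENSRNOG00000008478 (next 57.0).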

How the results depend on the processing

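Over all alternatives run, the 4 genes given by identifier kept their direction and passed the test, but their adjusted p depended on the fit. With only the 8 libraries limma gave an adjusted p of 5.00e-05 for ENSRNOG00000002548 and 0.00212 for ENSRNOG00000008478. It gave 4.05e-16 for ENSRNOG00000013552 and 3.33e-04 for ENSRNOG00000013128. With limma voom ENSRNOG00000008478 had an adjusted p of 0.0225, the highest of the 4 genes in any run. Counts moved by at most 1.5 times except for 4 values, all of them numbers of genes that fell in PIA against Naive. That number was 1493 as reported, 2589 with TMM factors and 2534 with quantile normalization. The number that fell at least 2-fold was 1184 as reported, 710 with a filter of 50 normalized reads and 1919 with no filter, where fewer and more genes were tested. Of any size, 3606 genes rose and 2235 fell with no filter, and 3127 rose and 1025 fell with the filter of 50. Leaving out 1 library at a time gave 4225 to 5344 called genes, 2933 to 4133 higher and 1175 to 1446 lower. Replicate numbers are shared by PIA and Naive. Deviations of libraries with the same number correlated at -0.101 to 0.0693, and of libraries with different numbers at -0.0804 to 0.0886. Deviations within a group cancel out over its 4 libraries, so these values cannot settle whether the numbers pair libraries. With a replicate block 5188 genes were called. For saline day 1 against healthy RTD-1 day 3 a replicate block gave 5455. limma voom on recovered reads called 5084 genes. In the simulation 4% of 1.5-fold changes were recovered, at a spread pooled over the 10 groups and with few genes changed. This rate is not that of the PIA and Naive contrast.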
